A study of Mus musculus with 8 samples.

Results

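Tfeb, Tfec and Mitf encode 3 of the MiT transcription factors, and the regions of the histone mark H3K27-me3 around them were collected from ChIP-seq of fasted mouse liver. Members were the genes of these names in the GENCODE annotation of mm10, 3 of 21938 protein-coding genes. Every region within 50 kb of an annotated start site of any of their transcripts, or over the gene body, was taken, which gave 16 of the 59267 regions in the AAV-Cre list and 3 of the 34586 regions in the AAV-GFP list. The mice of both groups were male C57BL/6 animals with a floxed allele of JMJD3, the H3K27 demethylase encoded by Kdm6b. They received virus at 8 weeks of age and were fasted for 16 h at 12 weeks after injection. One group received AAV-TBG-Cre, in which the TBG promoter restricts Cre to hepatocytes, and the control group received AAV-GFP. Each group had 2 H3K27-me3 and 2 input libraries, and the authors pooled the replicates of a group into 1 list of regions. No value per mouse is given, so that a difference between the lists has no replicate check and none was tested.

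MiT factors are basic helix-loop-helix leucine zipper proteins that bind E-box sequences as dimers with each other. TFEB drives genes of lysosomes and autophagy, and is held in the cytoplasm of fed cells by phosphorylation through mTORC1 and enters the nucleus in fasting. MITF controls pigment cells, osteoclasts and mast cells, and its gene is read from several alternative promoters, of which the most downstream serves melanocytes. TFEC is found mainly in macrophages and related myeloid cells. H3K27-me3 is deposited by Polycomb repressive complex 2, is associated with silent genes and often covers CpG-rich start sites.

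The lists differ in ways that touch every count below. The AAV-Cre regions had a median width of 753 bp and the AAV-GFP regions 231 bp, and 88.6% of the former but 46.8% of the latter reached a q-value of 0.05 in their own peak call. The lists give no read counts, so the depth behind a region is unknown and no counting interval is given. Fold enrichment is the ChIP signal over the local input background within a list, and folds were not compared between lists. The chromatin came from minced liver, so that a mark in hepatocytes cannot be told apart from one in other liver cells. Of 11 hepatocyte genes looked up in the lists, 10 had no region of either list within 15 kb of a start site, among them Alb, Ttr and Apob. This was also the state of 54.4% of all protein-coding genes. Cyp2e1 had regions of both. The lists do not measure the deletion of Kdm6b or the expression of any gene.

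The sequences at the summits of 4 AAV-Cre regions are shown as the regions that the account of Tfeb and Mitf turns on. Regions 5 and 6 at Tfeb are the nearest on each side of the gene, region 1 at Mitf is the widest there, and region 5 is the one inside the gene. Each is 151 bases of the + strand of mm10 centred on the summit, at chr17:47732351-47732501, chr17:47796378-47796528, chr6:97758970-97759120 and chr6:97892188-97892338, with every CpG in capitals. The windows at Tfeb regions 5 and 6 held 6 and 5 CpG, and those at Mitf regions 1 and 5 held 0 and 2. The windows shown do not stand for all regions of a gene, since those at Tfeb regions 1, 2, 7 and 11 held 2, 1, 1 and 2 CpG, no more than Mitf region 5.
Tfeb AAV-Cre region 5: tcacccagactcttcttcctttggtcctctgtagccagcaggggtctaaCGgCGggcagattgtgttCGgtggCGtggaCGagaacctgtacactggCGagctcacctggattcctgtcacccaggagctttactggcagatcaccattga
Tfeb AAV-Cre region 6: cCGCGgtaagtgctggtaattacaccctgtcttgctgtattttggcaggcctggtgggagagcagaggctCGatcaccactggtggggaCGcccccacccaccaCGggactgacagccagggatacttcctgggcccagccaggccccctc
Mitf AAV-Cre region 1: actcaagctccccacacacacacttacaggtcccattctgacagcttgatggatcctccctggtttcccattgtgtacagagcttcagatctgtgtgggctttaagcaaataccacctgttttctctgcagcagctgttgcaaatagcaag
Mitf AAV-Cre region 5: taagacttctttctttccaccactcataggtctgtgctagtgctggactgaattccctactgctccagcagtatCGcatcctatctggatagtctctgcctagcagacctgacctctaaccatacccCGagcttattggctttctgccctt

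The sequences before 4 start sites are shown because H3K27-me3 often lies over CpG-rich promoters, and these windows, which differ widely in CpG, had no region of either list within 1 kb of their start sites. Each is the 150 bases before the start site on the strand of the gene in mm10, at chr17:47736880-47737029, chr17:47737450-47737599, chr6:16898442-16898591 and chr6:97806902-97807051, of which Tfec is on the − strand and the others on the + strand. Tfeb promoter 2 held 19 CpG and Tfec promoter 1 held 1.
Tfeb promoter 1: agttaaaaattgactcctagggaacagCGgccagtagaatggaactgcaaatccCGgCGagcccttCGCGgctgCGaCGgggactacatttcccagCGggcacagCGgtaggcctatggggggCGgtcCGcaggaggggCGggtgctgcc
Tfeb promoter 2: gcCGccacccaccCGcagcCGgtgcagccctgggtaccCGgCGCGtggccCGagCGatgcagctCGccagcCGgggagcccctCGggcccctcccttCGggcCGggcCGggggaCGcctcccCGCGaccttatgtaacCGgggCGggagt
Tfec promoter 1: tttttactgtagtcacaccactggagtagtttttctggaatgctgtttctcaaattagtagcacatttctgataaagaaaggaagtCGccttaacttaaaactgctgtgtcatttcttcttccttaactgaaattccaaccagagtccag
Mitf promoter 1: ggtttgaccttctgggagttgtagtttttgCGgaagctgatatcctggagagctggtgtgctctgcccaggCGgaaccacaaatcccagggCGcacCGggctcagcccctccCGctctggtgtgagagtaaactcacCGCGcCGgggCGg

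Tfeb lies at chr17:47737030-47792419 on the + strand (ENSMUSG00000023990.18), with a body of 55390 bp, 15 transcripts and 14 annotated start sites that join into 11 promoters. Regions lay on both sides of the gene and none lay over it. The AAV-Cre list held 11 regions within reach, which covered 14496 bases or 9.51% of the 152412 bp examined, and the AAV-GFP list held 2 regions that covered 2272 bases or 1.49%. A region within reach was present in 64.6% of all protein-coding genes in AAV-Cre and in 49.6% in AAV-GFP. Tfeb had more AAV-Cre regions than 84.8% of these genes, for which the median was 2 regions, and more AAV-GFP regions than 61.5%. By the share of bases covered it ranked above 80.6% of genes in AAV-Cre and above 78.3% in AAV-GFP. These ranks are close although the shares themselves, 9.51% and 1.49%, are not. All of the AAV-GFP bases lay at the neighbour Mdfi, and 0 were assigned to Tfeb by closest start site.

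**Figure D1:**
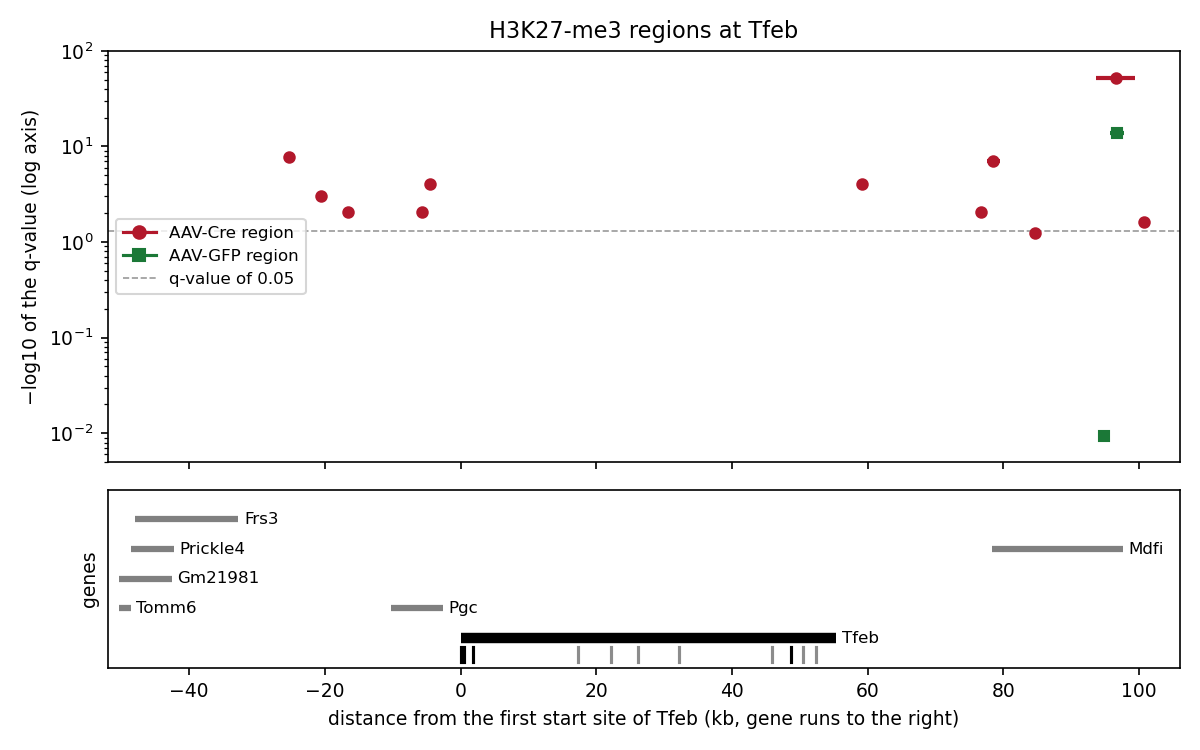
Regions around Tfeb, with distance along chromosome 17 in kb on the x axis, −log10 of the q-value on a log y axis, and gene bodies drawn as bars below. Circles are AAV-Cre regions, squares are AAV-GFP regions, bar lengths are region widths and the dashed line is a q-value of 0.05. The Tfeb body is free of regions, and both AAV-GFP regions sit at Mdfi.

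Before the gene, 5 AAV-Cre regions spread over 22016 bp and held 30.7% of the bases. Region 1, at chr17:47710985-47712556, was 1572 bp wide with a fold of 4.21 and a q-value of 1.7e-08, and its closest other gene was Frs3, which encodes an adaptor of FGF receptors, at 8920 bp. Regions 2 and 3 were 698 and 745 bp wide, lay between genes and had q-values of 0.00095 and 0.0086. Regions 4 and 5 lay over Pgc, the gene of the stomach protease precursor progastricsin, which ends shortly before Tfeb begins. Region 4 was 488 bp wide in an intron of Pgc, with a fold of 2.69 and a q-value of 0.0086. Region 5, at chr17:47732050-47733000, was 951 bp wide over a coding exon of Pgc, with a fold of 3.30 and a q-value of 8.4e-05. It ended 4030 bp before the first Tfeb start site, was 5206 bp from the nearest Pgc start site, and was thus closer to Tfeb. Region 4 was closer to Pgc, at 4245 bp against 5454 bp for Tfeb.

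After the gene, 6 AAV-Cre regions held 69.3% of the bases, and Mdfi, which encodes an inhibitor of MyoD family factors, was the nearest other gene of each. Region 6, at chr17:47795807-47796706, began 3388 bp past the end of the Tfeb body. It was 900 bp wide with a fold of 3.25 and a q-value of 8.4e-05, and lay 6366 bp from the last Tfeb start site and 36463 bp from Mdfi. Regions 7, 8 and 9 lay closer to Mdfi than to Tfeb, with q-values of 0.0086, 7.9e-08 and 0.057. Region 10, at chr17:47830708-47836425, lay over the start site of Mdfi and was 5718 bp wide, wider than 98.0% of the AAV-Cre list, with a fold of 10.9 and a q-value of 4.5e-53. It alone held 39.4% of the AAV-Cre bases around Tfeb, 41267 bp from the nearest Tfeb start site. Region 11 was 558 bp wide with a q-value of 0.023. Without region 10, the folds of all AAV-Cre regions around Tfeb, on both sides of the gene, ran from 2.30 to 4.21.

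The AAV-GFP regions around Tfeb lay inside region 10 and nowhere else. One was 126 bp wide in an intron of Mdfi with a q-value of 0.98, and the other was 2146 bp wide over the Mdfi start site with a q-value of 1.2e-14. The remaining 10 AAV-Cre regions overlapped no AAV-GFP region. For regions 5 and 6, with a −log10 p of 6.22, 21.9% of the 3653 AAV-Cre regions whose −log10 p lay within 0.5 of theirs overlapped an AAV-GFP region, so that most regions of that strength anywhere were also absent from the AAV-GFP list. For regions 1 and 8 this share was 54.6% and 47.9%, and for region 10 all 26 such regions overlapped one.

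By closest start site, regions 5 and 6 were the only AAV-Cre regions assigned to Tfeb itself, with 1851 bases or 12.8% of those around the gene. They flank a stretch of 62806 bp without an AAV-Cre region, in which the whole gene lies. Among 1913 protein-coding genes with a body of 44328 to 69200 bp, close in length to that of Tfeb, 66.8% had no AAV-Cre region over the body and 74.9% no AAV-GFP region. The AAV-GFP list had no region from 326205 bp before the body to 39373 bp after it.

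The promoters of Tfeb differed in their distance from the mark. Promoters 1 to 3, which lie close together at the start of the gene, were 4030, 4600 and 5903 bp from an AAV-Cre region. The distance rose to 30170 bp at promoter 6 inside the gene and fell to 6366 bp at promoter 11. A region lay within 15 kb of 7 of the 11 promoters in AAV-Cre and of 0 in AAV-GFP, whose nearest region was 42352 bp from promoter 11 and 94763 bp from promoter 1. Promoters 1 and 2 were CpG-rich, with an observed over expected CpG of 0.878 and 0.693 within 500 bp of the start site and a GC content of 57.8% and 71.1%. At promoter 9, a start site of a basic transcript late in the gene, the CpG ratio was 0.305 and the nearest AAV-Cre region was at 10087 bp.

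**Figure D2:**
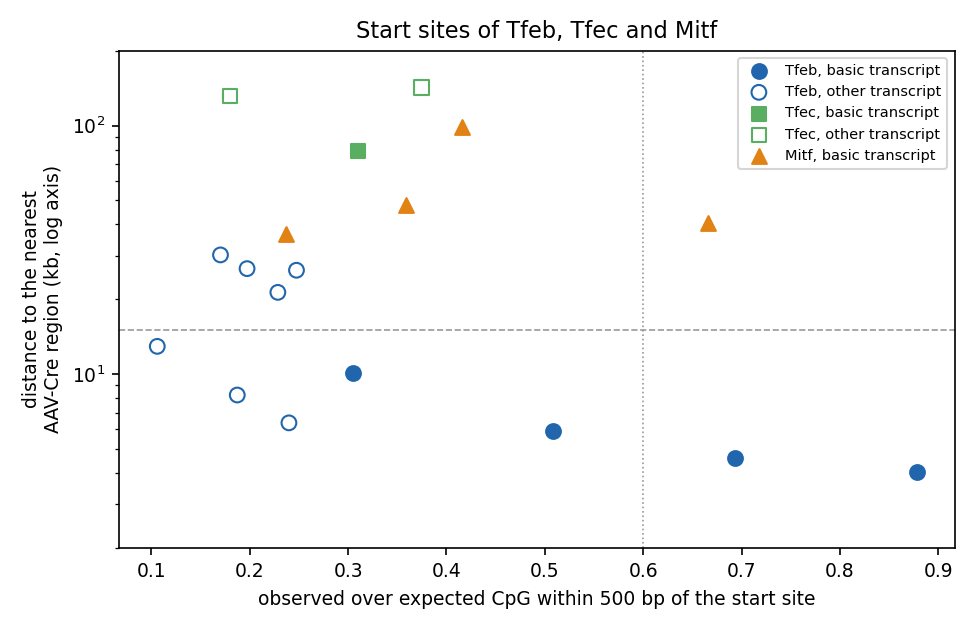
Observed over expected CpG within 500 bp of each start site on the x axis against its distance in kb from the closest region of the AAV-Cre list on a log y axis, for the promoters of Tfeb, Tfec and Mitf. The dashed line marks 15 kb and the dotted line a CpG ratio of 0.6, and 7 Tfeb promoters but none of Tfec or Mitf lie below 15 kb.

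Tfec lies at chr6:16833373-16898441 on the − strand (ENSMUSG00000029553.10), with 5 transcripts and 3 promoters, and no region of either list lay within 50 kb of a start site or over its 65069 bp body. No region within reach in either list was the state of 33.3% of all protein-coding genes. The nearest AAV-Cre region, chr6:16977521-16978105, was 585 bp wide and lay 79080 bp upstream, and the nearest AAV-GFP region was 125 bp wide at 81506 bp on the same side, with q-values of 5.9e-06 and 0.25. On the other side the nearest regions were 514915 and 514853 bp away. Tfec thus lay in a gap of 659062 bp in AAV-Cre and of 661426 bp in AAV-GFP. Its promoters were poor in GC, at 33.6% to 36.0%, and none was CpG-rich. The sequence examined around it had a GC content of 37.0%, against 52.0% around Tfeb.

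Mitf lies at chr6:97807052-98021349 on the + strand (ENSMUSG00000035158.15), with a body of 214298 bp, 8 transcripts and 4 promoters. Its regions formed a group far upstream and a single region within the gene. AAV-Cre had 5 regions of 8923 bases, or 3.13% of the 284870 bp examined, and AAV-GFP had 1 region of 223 bases, or 0.0783%. Mitf had more AAV-Cre regions than 64.9% of protein-coding genes and more AAV-GFP regions than 50.4%. By the share of bases covered, which allows for the length examined, it ranked above 60.2% of genes in AAV-Cre and above 51.3% in AAV-GFP. No other protein-coding gene started nearer to any of these regions, and the closest other, Frmd4b, was at least 140682 bp from each.

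The upstream group of 4 AAV-Cre regions held 7272 bases within 8342 bp, or 81.5% of the bases, separated by gaps of 313, 217 and 540 bp. Region 1, at chr6:97758223-97762443, was 4221 bp wide, wider than 96.0% of the list, with a fold of 3.33 and a q-value of 3.9e-08, and ended 44609 bp before the first start site. Region 2 was 1495 bp wide with a q-value of 2.3e-05, and regions 3 and 4 were 891 and 665 bp wide, each with a q-value of 0.023. The AAV-GFP region, chr6:97760562-97760784, lay inside region 1 and was 223 bp wide with a fold of 2.29 and a q-value of 0.35. Of 1876 AAV-Cre regions as strong as region 1, 49.3% overlapped an AAV-GFP region.

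Region 5, at chr6:97891495-97893145, lay in an intron of Mitf, 84443 bp past the first start site and 36654 bp before the second promoter. It was 1651 bp wide with a fold of 3.30 and a q-value of 8.4e-05, and no AAV-GFP region overlapped it. The nearest annotated gene other than Mitf was the pseudogene Gm15531, at 956 bp. Among 547 protein-coding genes with a body of 171825 to 267815 bp, 46.4% had no AAV-Cre region over the body and 54.7% no AAV-GFP region, and the median was 1 AAV-Cre region. The 4 promoters of Mitf were 40488, 36654, 47773 and 98647 bp from an AAV-Cre region, in order along the gene. The first, the only CpG-rich promoter of Mitf with a CpG ratio of 0.666, was 46268 bp from an AAV-GFP region. The last, which is the start site nearest to the end of the gene, was the farthest from the mark in AAV-Cre, and its nearest AAV-GFP region, at 52711 bp, lay beyond the reach used here.

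**Figure D3:**
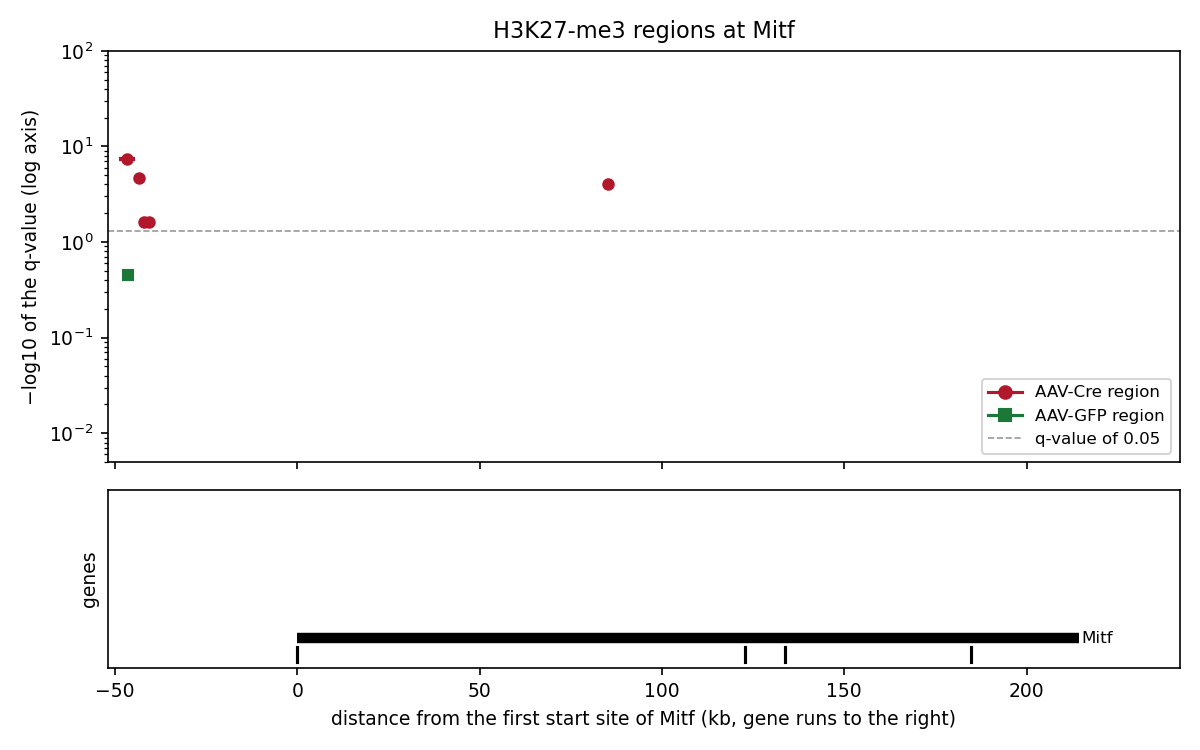
Regions around Mitf, with distance along chromosome 6 in kb on the x axis, −log10 of the q-value on a log y axis, and gene bodies drawn as bars below. Circles are AAV-Cre regions, squares are AAV-GFP regions and the dashed line is a q-value of 0.05. The upstream group of 4 AAV-Cre regions holds the single AAV-GFP region, and 1 AAV-Cre region lies within the gene.

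Set side by side, Tfeb and Mitf had regions within reach in both lists, which held for 47.5% of all protein-coding genes, Tfec had none, and no member had regions within reach only in AAV-Cre, a state of 17.1% of genes. Within 15 kb of a start site, the window of the study, Tfeb had regions only in AAV-Cre, namely regions 4, 5 and 6. This state was shared by 15.7% of all genes. Tfec and Mitf had none within 15 kb in either list, as did 54.4% of genes. No member had regions of both lists within 15 kb, which 28.6% of genes had, or regions of AAV-GFP only, which 1.26% had. Over the body, Mitf was the only member with a region in AAV-Cre and no member had one in AAV-GFP, against 28.8% and 20.7% of genes. Within 1 kb of a start site no member had a region, against 25.3% of genes in AAV-Cre and 17.4% in AAV-GFP. With 3 members these counts are a description.

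At Tfeb the regions 4, 5 and 6 all had a q-value of 0.01 or lower. The AAV-GFP list had 0 regions within 15 kb before any threshold, so a stricter threshold could only give 0 again. When the AAV-Cre list was cut to its 34586 strongest regions, the length of the AAV-GFP list, 2 of regions 4, 5 and 6 were left. This cut does not change the AAV-GFP list, so its count of 0 is no further check.

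**Figure D4:**
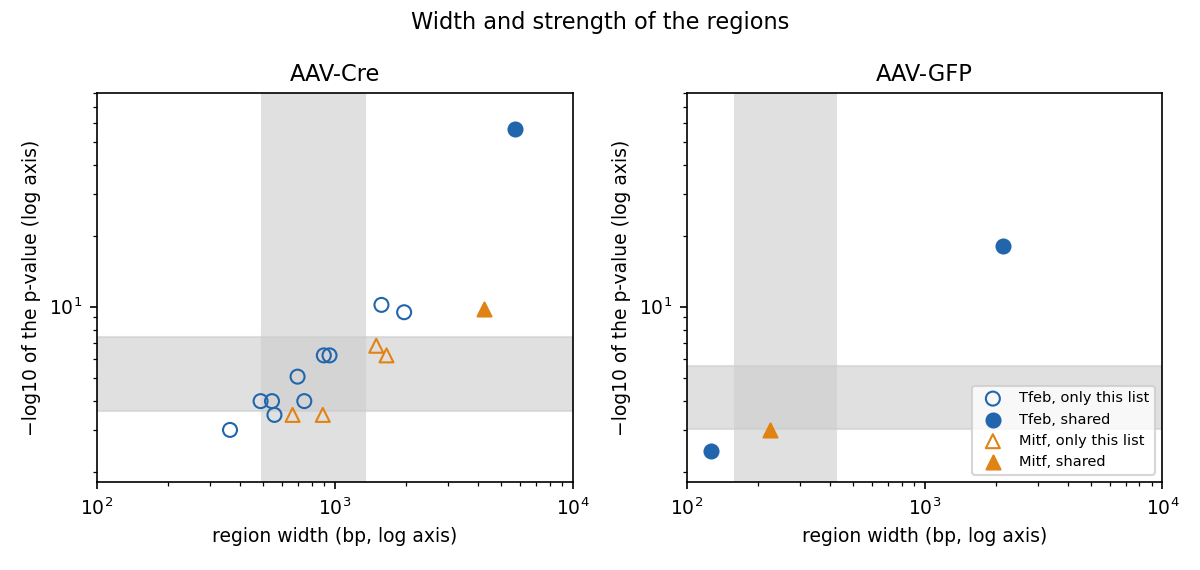
Width in bp on the x axis against −log10 of the p-value on the y axis, both on log axes, for the regions around Tfeb (circles) and Mitf (triangles), in one panel per list. Grey bands span the interquartile ranges of the whole list and filled symbols overlap a region of the other list. Tfeb region 10, at a −log10 p of 56.5, stands far above the other 15 AAV-Cre regions, which run up to 10.2.

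The regions of Tfeb and Mitf differed in base composition. The GC content of the regions in the whole AAV-Cre list had an interquartile range from 46.6% to 53.3%. Of the 11 AAV-Cre regions around Tfeb, 9 lay above that upper quartile, and the GC content of all 11 ran from 52.2% to 57.6%. All 5 around Mitf lay below the list median and 4 below the lower quartile, from 43.7% to 48.9%. The GC content of the sequence around each gene differed in the same order, at 52.0% for Tfeb and 42.2% for Mitf. The CpG density per 100 bases was above the list median of 1.32 in 7 of the 11 Tfeb regions and in 0 of the 5 Mitf regions. Over all the sequence examined around each gene this density was 1.69 for Tfeb and 0.859 for Mitf, so the surroundings differed in the same order.

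CpG-rich start sites had a region within 1 kb more often than others across the annotation, at 25.2% against 14.0% in AAV-Cre and 21.1% against 7.15% in AAV-GFP. Of the 18 promoters of Tfeb, Tfec and Mitf, 3 were CpG-rich, and none of the 18 had a region within 1 kb in either list. The E-box CACGTG, which reads the same on both strands, was looked for in the 300 bp promoter windows of RefSeq for mm10. It was present in 0 of the 7 windows of these genes and in 7.15% of all 32851 windows, which says only that these letters are not in those windows. Within the regions it was present in 4 of the 16 in AAV-Cre, with 1 copy each in Tfeb regions 7 and 8 and Mitf region 1 and 2 copies in Mitf region 2, and in 0 of the 3 in AAV-GFP. Of all AAV-Cre regions whose width lay within 10% of theirs, 7.90%, 28.2%, 48.6% and 21.4% held it, in the same order. For the AAV-Cre regions without it, this share ran from 5.59% at Tfeb region 9 to 55.1% at Tfeb region 10. In the AAV-GFP list the share was 1.85% and 32.0% for Tfeb regions 1 and 2, and 3.13% for Mitf region 1. Whether the regions hold it more often than others of their width was not tested.

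Other genes that act with the MiT factors were looked up in lists, each gene by regions within 15 kb of a start site. Of 28 genes that control MiT factors through mTORC1, phosphorylation and nuclear export, 8 had regions only in AAV-Cre, 3 in both lists and 17 in neither. The 8 were Akt1, Fnip2, Lamtor3, Lamtor5, Rptor, Rraga, Rragb and Slc38a9, of which Rptor encodes the mTORC1 subunit raptor. At Rragb, which encodes a Rag GTPase of the lysosome, a 759 bp region with a fold of 2.82 and a q-value of 0.003 lay over the start site. The related gene Rragd had a 3205 bp region over its start site with a q-value of 2.4e-23 and regions of both lists. Lamtor2 and Lamtor4 of the Ragulator complex also had regions of both lists, farther from their start sites. The nearest AAV-Cre and AAV-GFP regions were at 12033 and 13985 bp for Lamtor2, and at 3928 and 14958 bp for Lamtor4. The AAV-Cre region nearest to Lamtor2 lay over an exon of Mex3a, and that nearest to Lamtor4 over an exon of Nxpe5. The region nearest to Slc38a9, an amino acid sensor of the lysosome, lay over the start site of its neighbour Ddx4. Mtor and Flcn, which encodes folliculin, had none within 15 kb, with the nearest AAV-Cre region at 29630 and 71062 bp.

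Of 32 lysosomal and autophagy genes that TFEB targets, 6 had regions only in AAV-Cre, 3 in both and 23 in neither, among them Lamp1, Sqstm1 and Ppargc1a. Ctsd, Ctsf, Naglu, Sgsh and Wipi1 were among those with AAV-Cre only. The AAV-Cre region within 15 kb of Naglu, at 6448 bp, lay over the start site of its neighbour Hsd17b1. The region nearest to Ctsf, a cathepsin gene, was at 4549 bp with a q-value of 4.8e-12 and was closer to Actn3, at 888 bp. At Ctsd the AAV-Cre region was at 14944 bp and an AAV-GFP region at 15205 bp, on either side of the window edge, and the former lay over the start site of Ifitm10. Atg9b, a gene of autophagosome formation, had regions of both lists, with a q-value of 5.9e-22 over its start site in AAV-Cre. The lysosomal enzyme genes Gaa and Tpp1 had regions of both as well, but their nearest AAV-Cre regions were closer to neighbours. That of Gaa, at 9008 bp, lay in an intron of Ccdc40, 48 bp from its start site. That of Tpp1, at 5476 bp, lay over a start site of Dchs1.

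Of 18 MITF targets of pigment cells and osteoclasts, 4 had regions in both lists, 3 only in AAV-Cre, 1 only in AAV-GFP and 10 in neither. Of those in both lists, Mc1r, Rab27a and Gpnmb had the lowest q-values. Mc1r, the melanocortin receptor gene, had a region with a fold of 10.9 and a q-value of 1e-45 that also covered the start site of Tubb3, and Ednrb and Dct had AAV-Cre regions over a start site and no AAV-GFP region within 15 kb. Tyrp1 was the gene with AAV-GFP only, at 12261 bp. Its nearest AAV-Cre region lay past the window, at 17930 bp, with a fold of 4.34 and a q-value of 1.7e-08. Of 19 other genes of basic helix-loop-helix leucine zipper factors, 7 had regions only in AAV-Cre, 3 in both, 1 only in AAV-GFP and 8 in neither. The 7 were Mlx, Mxd3, Mxd4, Mxi1, Srebf2, Tfap4 and Usf1, and the gene with AAV-GFP only was Max, the shared partner of the Myc family, at 14789 bp. The region counted for Mlx, at 7104 bp, was the one over the start site of Hsd17b1 that was also counted for Naglu. Mycn had a region with a fold of 13.4 and a q-value of 1.4e-63 over its start site, and Mlxip and Mycl also had regions of both lists. Srebf2, of sterol synthesis, had an AAV-Cre region at 12636 bp and an AAV-GFP region at 15169 bp, just past the window. Tfe3, the remaining MiT gene and not among the 3 members, had its nearest regions at 123213 and 123715 bp, so that it was in neither list within 15 kb, as were Tfec and Mitf. The share with regions only in AAV-Cre was 28.6%, 18.8%, 16.7% and 36.8% in the 4 lists, beside 15.7% of all protein-coding genes, and was 0 of 11 for the hepatocyte genes. The share with regions of both lists was 10.7%, 9.38%, 22.2% and 15.8%, beside 28.6% of all genes. The share with regions of neither list was 60.7%, 71.9%, 55.6% and 42.1%, beside 54.4% of all genes.

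**Figure D5:**
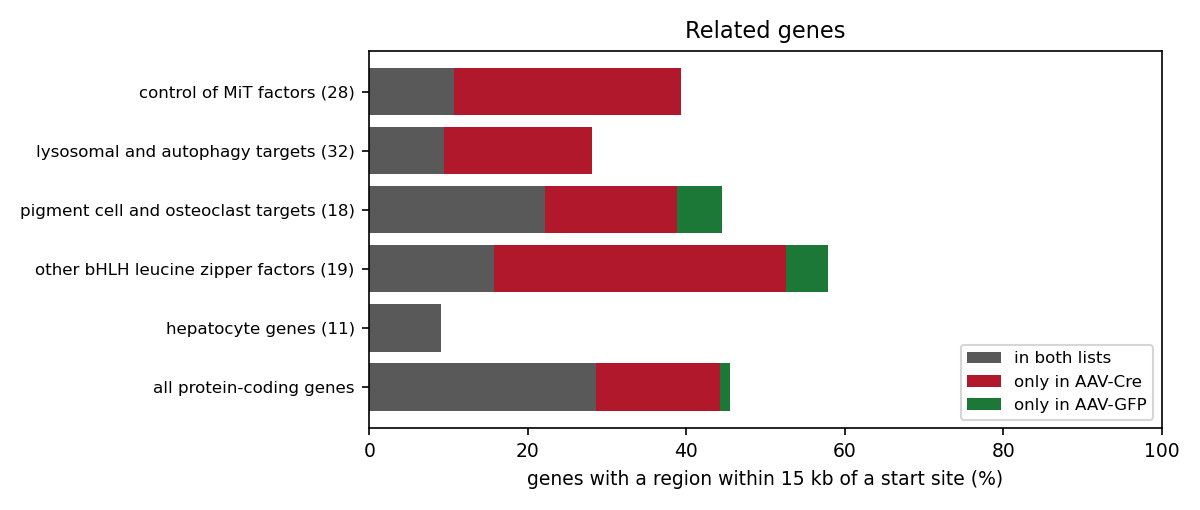
Genes of each list, as a percent of the genes found on the x axis, with regions within 15 kb of a start site in both lists (grey), only in AAV-Cre (red) or only in AAV-GFP (green), beside all protein-coding genes. The uncoloured rest of each bar is genes with no region in either list, which is the largest class in every list shown, from 8 of the 19 other leucine zipper factors to 10 of the 11 hepatocyte genes.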

How the data were processed

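The authors profiled H3K27-me3 by ChIP-seq in fasted livers, with 2 ChIP and 2 input libraries for each virus. Their AQUAS pipeline mapped reads to mm10 with bwa 0.7.13, used Samtools 1.2 and Picard 1.126 to filter them, and ran MACS on them against a pooled input. Peaks that overlapped across replicates were kept. The deposited lists hold, for each region, the fold enrichment (a ratio over input), the −log10 of the p-value, the −log10 of the q-value and the summit offset, with no counts and no value per replicate. Narrow calls split a broad domain into several regions, so that neighbouring regions are not independent.

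Genes and start sites were taken from GENCODE M21 and sequences from the GRCm38 reference, the assembly that mm10 names. Start sites within 500 bp were joined into a promoter. A promoter was called CpG-rich at an observed over expected CpG of at least 0.6 and a GC content of at least 50% within 500 bp. An overlap of 1 bp or more made a region shared. The closest other gene was the protein-coding gene whose start site was nearest. The virus groups were not tested against each other, as each has a single list. The named genes were the members and, in each list of related genes, those with a region of 1 list only and up to 3 with the lowest q-value in both. By this rule 1 further gene would be named, which is not reported here. Others, such as Lamp1, Mtor, Flcn and Tfe3, were chosen after their values were seen. The members and lists were chosen with earlier results of these data known. Of 12 hepatocyte genes, 11 were found by symbol. Alternatives were q-value thresholds, equal list length, joining of near regions, narrower reaches, basic transcripts only and a stricter overlap. The functions were tested on simulated data. Python 3.11.15, pandas 2.3.3, numpy 2.4.6 and pysam 0.24.0 were used.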

Additional observations from a re-analysis of the deposited data

How the results depend on the processing

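The main counts were 16 AAV-Cre and 3 AAV-GFP regions, 23419 and 2495 bases, 2 and 3 shared regions and 0 members with regions only in AAV-Cre. Of 71 values under 13 alternatives, 40 stayed within 1.5 times of the main value and 31 did not. With a q-value of 0.05 or lower, AAV-GFP kept 1 region, 1 AAV-Cre and 1 AAV-GFP region were shared, and 1 member, Mitf, had regions only in AAV-Cre. The counts were the same 1, 1, 1 and 1 at a q-value of 0.01 or lower. With the same number of 34586 top regions in each list, AAV-Cre had 9 regions around the members. With 15 kb around start sites and the body, AAV-Cre had 4 regions of 3990 bases and AAV-GFP 0 regions of 0 bases, 0 and 0 were shared, and 2 members had regions only in AAV-Cre. With 15 kb around start sites alone, these were 3 regions of 2339 bases, 0 of 0 bases, 0 and 0 shared, and 1 member, Tfeb. With 5 kb they were 1 region of 951 bases, 0 of 0 bases, 0 and 0 shared, and 1 member. When at least 0.5 of a region had to be covered, 0 AAV-Cre regions were shared. The smaller counts under narrower windows and stricter thresholds follow from their construction. The regions within 15 kb of Tfeb under q-value thresholds and equal list length were counted after seeing the data. No replicate could be left out, and no paired analysis was possible because replicates were combined before deposit.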
